A study of Mus musculus with 2 samples.

Results

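Red blood cells hold a small set of very abundant miRNAs, and 6 mature species of that set were followed in plasma extracellular vesicles (EVs). They were mmu-miR-451a, mmu-miR-144-3p, mmu-miR-144-5p, mmu-miR-486a-5p, mmu-miR-486b-5p and mmu-miR-16-5p, taken by name from the 1982 mature miRNAs of the count table. Of these 6, 2 had a count in either library and 4 were at 0 in both, while 117 of all listed miRNAs had a count. EVs were isolated by size exclusion chromatography (SEC) from about 10 ml of pooled plasma of wild type C57BL/6 mice, 8 weeks old and fed normal chow, with 20 mice in each group. Mice of the exercise group were accustomed to a treadmill over 3 days and then ran a single bout of 60 min to exhaustion, with the belt speed raised from 10 to 24 m/min. Mice of the other group stayed sedentary, and no treadmill handling is stated for them. Each pool gave 1 small RNA library, called sEVs for the sedentary pool and eEVs for the exercise pool, so the difference between them has no replicate check. The comparison asks whether the miRNA cargo of EVs differs after acute exercise.

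In all, 2851 miRNA counts were obtained from sEVs and 820 from eEVs, a depth 3.48 times greater for sEVs. A count of 0 allows a level of up to 3 counts, which is a share of 0.105% in sEVs and 0.366% in eEVs. These limits, and the intervals given with shares and folds, cover counting error only.

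Red cells lose their nucleus and keep a stock of miRNAs made earlier in their development. miR-451a and miR-144 are made from 1 primary transcript that the erythroid factor GATA1 switches on, and miR-486 and miR-16 are also abundant in these cells. The miR-451a hairpin is too short for Dicer, and it is cut by Argonaute 2 instead, so that its mature miRNA runs into the loop and no miRNA comes from the opposite arm. miR-144 takes the usual route through Dicer and can leave a product from either arm. miR-486 lies in Ank1, a gene for a red cell membrane skeleton protein, and miR-16 is made in nearly all cell types.

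The mature sequences below are given because the 4 species differ in seed, the stretch with which a miRNA pairs to its targets, and in how they sit in their hairpins. They come from RefSeq on GRCm38.p6, run from 5′ to 3′ and carry the seed (bases 2 to 8) in capitals. Of the 6 members, 4 were matched there by name. The sequence of miR-15a-5p, which had counts in sEVs, is added because it has the seed of miR-16-5p.
mmu-miR-451a: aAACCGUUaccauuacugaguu
mmu-miR-144-5p: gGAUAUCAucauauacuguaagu
mmu-miR-144-3p: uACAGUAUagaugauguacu
mmu-miR-16-5p: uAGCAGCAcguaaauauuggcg
mmu-miR-15a-5p: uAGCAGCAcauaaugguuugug
The seeds of miR-451a, miR-144-3p and miR-144-5p were found in no other mature mouse miRNA of that collection. The seed of miR-16-5p was shared by 9 other species, all of them listed in the count table, and of these 1 had a count, namely miR-15a-5p.

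Mir144 and Mir451a are neighbours on the + strand of chromosome 11 (GRCm38), at chr11:78073005-78073070 and chr11:78073170-78073241. The 2 hairpins are 99 bases apart, and neither lies within an annotated protein-coding gene. They are printed with the mature parts in capitals to show where the counted species lie.
Mir144: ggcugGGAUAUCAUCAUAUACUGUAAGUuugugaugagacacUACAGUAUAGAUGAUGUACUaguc
Mir451a: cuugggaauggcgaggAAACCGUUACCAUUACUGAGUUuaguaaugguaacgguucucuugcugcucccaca
The mature miR-451a covers bases 17 to 38 of its 72-base hairpin and crosses the middle, while miR-144-5p covers bases 6 to 28 and miR-144-3p bases 43 to 62 of a 66-base hairpin, 1 on each side of the middle. The Mir451a hairpin overlaps Mir451b on the opposite strand, and the longest run that mature miR-451a shares with the Mir451b hairpin is 16 of its 22 bases, against 10 for the next closest hairpin. miR-451b, the mature miRNA of that opposite strand, was at 0 in both libraries.

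miR-451a was the abundant red cell miRNA in both libraries. It had 27 counts in sEVs and 36 in eEVs, so the count was higher in the library of lower depth. Among the 31 species found in both libraries, 4 had more raw counts in eEVs than in sEVs: miR-451a, let-7c-5p, miR-93-5p and miR-1194. miR-451a took 0.947% of sEV counts (95% Wilson interval 0.652 to 1.37%) and 4.39% of eEV counts (3.19 to 6.02%), a difference of 3.44 percentage points. The 2 intervals did not overlap. At its sEV share, miR-451a would have given 7.77 counts in eEVs, and the 36 counts found there exceed this by 28.2. The fold change was 4.64 (exact 95% interval 2.74 to 7.94), or 2.21 on the log2 scale. Tested against all other counts, miR-451a had an adjusted p of 9.87e-08 (Fisher's exact test, two-sided, Benjamini-Hochberg adjusted over 117 species).

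That test compares 2 libraries, not exercise with rest among mice, and it assumes no spread between pools. When a coefficient of variation of 0.4 between pools was assumed in edgeR's exact test, the call was lost (adjusted p = 0.426), within a range of 5.95e-09 to 0.426 over 8 alternatives. Shares of a library total were measured, not amounts, so more miR-451a and less of other miRNAs cannot be told apart. In pooled plasma, more vesicles that carry miR-451a and more miR-451a per vesicle cannot be told apart either.

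**Figure D1:**
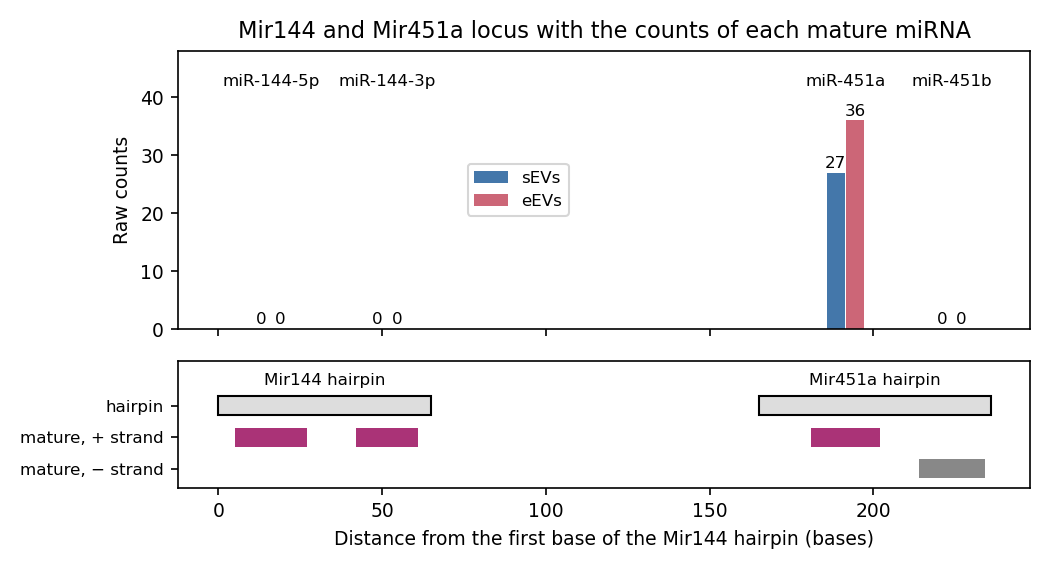
Raw counts of the mature miRNAs of the Mir144 and Mir451a locus in sEVs (blue) and eEVs (red), drawn above the hairpins and mature miRNAs at their distance in bases from the first base of the Mir144 hairpin. miR-451a had 27 and 36 counts, and both arms of Mir144 and the opposite-strand miR-451b had 0.

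miR-144, the cluster mate of miR-451a, was not detected. miR-144-3p, the arm usually taken as the active strand, had 0 counts in sEVs and 0 in eEVs, and so had miR-144-5p. Set against 3 counts for both arms together, miR-451a was at least 9-fold higher in sEVs and at least 12-fold higher in eEVs. Allowing also for the counting error of miR-451a, the exact 95% intervals of this ratio begin at 6.83 in sEVs and at 9.27 in eEVs. Of all counts on miR-451a and miR-144 together, up to 12.8% in sEVs and 9.74% in eEVs could have been miR-144 (upper end of the exact Clopper-Pearson interval of 0 in 27 and 0 in 36). Thus in both libraries the 2 products of 1 primary transcript were counted at unequal levels. Whether the ratio of miR-451a to miR-144 differed between sEVs and eEVs could not be measured, since miR-144 was at 0 in both.

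Both miR-486 species were also at 0 in both libraries. Mir486 lies on chromosome 8, at chr8:23142555-23142682, within an intron of Ank1 in GENCODE M21, and overlaps Mir3107 on the opposite strand. The zeros leave room for up to 0.105% of sEV counts and 0.366% of eEV counts on miR-486a-5p, and the limits listed for miR-486b-5p are the same. No sequence was matched for either miR-486 species. Whether their zeros are separate measurements was thus not tested, and their limits are not to be added. Against the same 3 counts, miR-451a was at least 9-fold higher than either species in sEVs and at least 12-fold higher in eEVs, and the exact intervals of these ratios begin at 6.83 and 9.27. Both limits lie below the share of miR-451a in the same library, 0.947% in sEVs and 4.39% in eEVs.

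miR-16-5p was the only other member with a count. It had 7 counts in sEVs, 0.246% of the library (0.119 to 0.506%), and 0 in eEVs. The limit in eEVs, 0.366%, is above the share of miR-16-5p in sEVs, so its absence from eEVs does not show a lower share: at an equal share, 2.01 counts were to be found there. The exact 95% interval of its fold change ran from 0 to 2.41, and the adjusted p was 0.620 (Fisher's exact test). This interval ends below that of miR-451a, which begins at 2.74. At the 4.64-fold of miR-451a, miR-16-5p would have given 9.33 counts in eEVs (5.51 to 15.98 over the interval of that fold).

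The mature miR-16-5p comes from 2 hairpins with the same 22 bases, so its counts cannot be assigned to 1 gene. Mir16-1 lies at chr14:61631880-61631972 on the - strand within Dleu2, a non-coding gene, and Mir16-2 at chr3:69009902-69009996 on the + strand in an intron of Smc4, which codes for a condensin subunit. Their opposite arms differ in sequence. miR-16-2-3p had 1 count in sEVs and 0 in eEVs, and miR-16-1-3p had 0 in both. miR-15a, which lies beside miR-16-1, had 3 counts in sEVs on each of its arms and 0 in eEVs.

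The 2 detected members can be set against each other within each library, which does not depend on the library totals. In sEVs there were 3.86 counts of miR-451a for each count of miR-16-5p (exact 95% interval 1.64 to 10.5). In eEVs there were 36 counts of miR-451a and none of miR-16-5p, a ratio of at least 12 against exactly 3 counts, and its exact 95% interval, which also covers the error of the 36 counts, begins at 9.27. The intervals of the 2 libraries overlap between 9.27 and 10.5. Compared directly, the ratio in eEVs over that in sEVs had an exact 95% interval that begins at 1.72 and has no upper end. This pair was chosen after the counts were seen, so its values are a description.

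**Figure D2:**
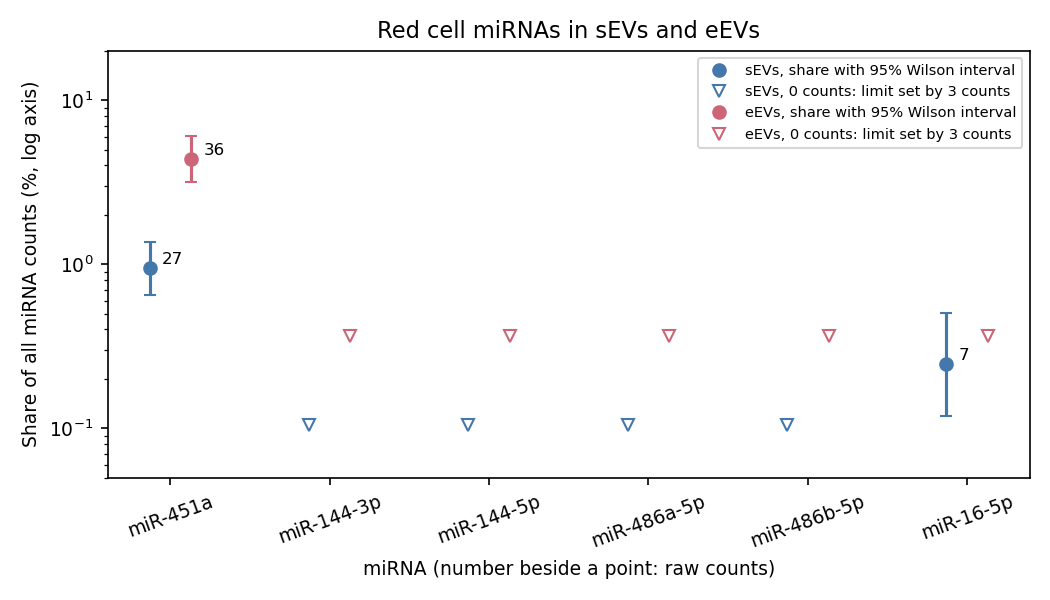
Share of all miRNA counts (%, log axis) of the 6 red cell miRNAs in sEVs (blue) and eEVs (red), with raw counts beside the points and 95% Wilson intervals; open triangles mark 0 counts, at the limit that 3 counts set. Only miR-451a was above the limit in both libraries, at 0.947% and 4.39%, and the limits in eEVs lie at 0.366%, above the 0.246% of miR-16-5p in sEVs.

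Of the 6 members, 1 was called higher in eEVs and 0 were called lower, and 4 could not be tested for want of counts. Over all 117 species with a count, 18.8% were called higher and 4.27% lower by the same test. The unequal depths shape these shares, which also change with the test, as given below. With 0 counts in sEVs and 3 in eEVs, miR-20a-5p was called higher (adjusted p = 0.0482, Fisher's exact test). With 16 counts in sEVs and 0 in eEVs, miR-122-5p was not called lower (adjusted p = 0.121 by the same Fisher's exact test). At its 7 counts in sEVs, miR-16-5p could not have been called lower. The calls among the members are thus not to be read as a shift of the group: they are the single change of miR-451a. The members together had 34 counts in sEVs (1.19%, 0.855 to 1.66%) and 36 in eEVs (4.39%, 3.19 to 6.02%), and miR-451a made up all of the eEV sum.

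miR-451a also moved up in the order of species within a library. By counts it was the 15th of 82 species in sEVs and the 4th of 66 in eEVs. In sEVs it stood between miR-1843b-3p with 32 counts and let-7f-5p with 25. The ratio of miR-451a to each was 0.844 (0.486 to 1.45) and 1.08 (0.603 to 1.94). In eEVs it stood between miR-466i-5p with 88 counts and miR-3470b with 26, which had 0 counts in sEVs. The ratio to miR-466i-5p was 0.409 (0.270 to 0.609), so these levels differed beyond counting error, while that to miR-3470b was 1.38 (0.813 to 2.39). Neighbours in both libraries were chosen by these same counts, so ratios near 1 follow from the choice and are a description.

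Of the 17 species with more than 3 counts in each library, miR-451a had the largest fold change. The nearest was let-7c-5p, a member of the let-7 family of differentiation-linked miRNAs, with 12 counts in sEVs and 13 in eEVs and a log2 fold change of 1.91 (0.66 to 3.17), which was called higher (adjusted p = 0.0159 by Fisher's exact test). That call was lost with adjustment over every listed miRNA (adjusted p = 0.269, Fisher's exact test), in a range of 0.00651 to 0.428 over 8 alternatives. miR-191-5p, common in blood cells, had 14 and 10 counts and a log2 fold change of 1.31 (-0.02 to 2.59). miR-126a-5p, an arm of the endothelial miR-126a, had 9 and 6 counts and a log2 fold change of 1.21 (-0.56 to 2.87). The tests of miR-191-5p and miR-126a-5p gave adjusted p values of 0.150 and 0.307. The intervals of let-7c-5p, miR-191-5p and miR-126a-5p all hold the 2.21 of miR-451a. These species were picked for their nearness to that value, so this carries no evidence of a like change. A difference in fold change between miR-451a and these species was not tested. The median log2 fold change of the 17 species was -0.17. Among the 31 species found in both libraries, miR-451a ranked 3rd in fold change. miR-93-5p and miR-1194 stood above it, each 13.9-fold higher on 1 and 4 counts. Outside both sets, miR-3470b rose from 0 counts in sEVs to 26 in eEVs. Its fold interval began at 22.8 (adjusted p = 1.02e-15, Fisher's exact test), so miR-451a was not the largest change of all.

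**Figure D3:**
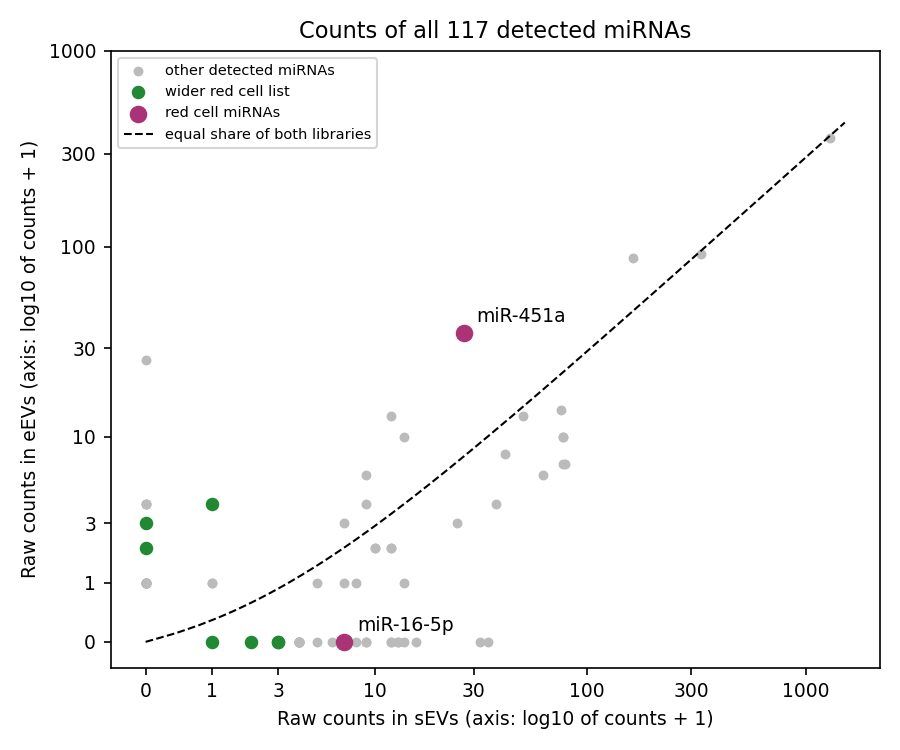
Raw counts of the 117 detected miRNAs in sEVs (x axis) and eEVs (y axis), both drawn as log10 of counts + 1, with red cell miRNAs in purple, the wider red cell list in green and a dashed line where the shares of both libraries are equal. miR-451a lies above the line at 27 and 36 counts, and miR-16-5p lies on the x axis at 7 counts.

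The level of miR-451a relative to miR-23a-3p is used in plasma work as a measure of red cell content, since miR-23a-3p is held to be little affected by red cells. miR-23a-3p was the most abundant species here, with 1289 counts in sEVs and 362 in eEVs. There were 2.09 counts of miR-451a per 100 counts of miR-23a-3p in sEVs and 9.94 in eEVs, a ratio 4.75 times higher in eEVs (exact 95% interval 2.76 to 8.24, two-sided Fisher's exact test, p = 3.44e-09). The rise was also found against the summed let-7 guide strands, with 109 counts in sEVs and 25 in eEVs (5.81, 2.85 to 11.9), and against both arms of miR-142a, a miRNA of white blood cells, with 155 and 21 counts (9.84, 4.75 to 20.5). Against miR-191-5p the ratio went from 1.93 in sEVs to 3.60 in eEVs, a factor of 1.87 whose interval of 0.651 to 5.45 holds 1 (p = 0.234, two-sided Fisher's exact test). A difference was thus not detected against miR-191-5p, which had 14 and 10 counts. The 4 intervals overlap, and differences between the references were not tested. All 4 ratios use the same 27 and 36 counts of miR-451a, so they are not independent of each other. miR-23a-3p made up 45.2% of sEV counts and 44.1% of eEV counts, so its ratio nearly repeats the fold change in share. The arms of miR-142a had lower shares in eEVs, with fold changes of 0.308 for miR-142a-5p and 0.640 for miR-142a-3p. A direct measure of free hemoglobin in the plasma is not given in the sources used here.

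**Figure D4:**
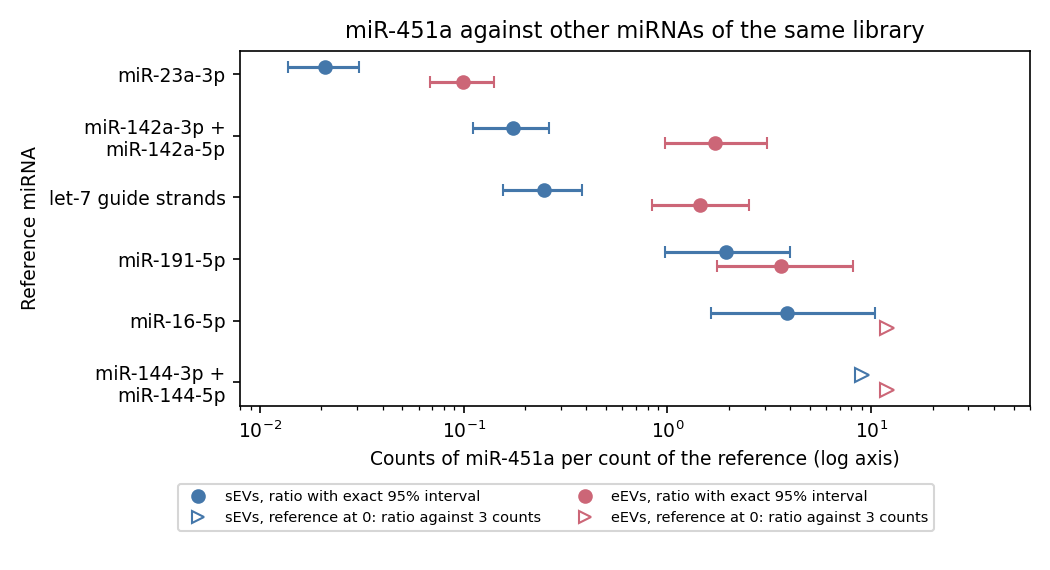
Counts of miR-451a per count of a reference miRNA in the same library (log axis), for sEVs (blue) and eEVs (red) with exact 95% intervals; open triangles show the ratio against 3 counts where the reference was at 0. The ratio to miR-23a-3p was 4.75 times higher in eEVs, the intervals of both libraries overlap for miR-191-5p, and the ratio to miR-144 was 9 and 12 against 3 counts, with exact intervals that begin at 6.83 and 9.27.

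A wider list of 28 miRNAs that are abundant in red cells or that share a hairpin, a cluster or a seed with the members held 7 species with a count, and 21 were at 0 in both libraries. In sum it had 10 counts in sEVs (0.351%, 0.191 to 0.644%) and 9 in eEVs (1.10%, 0.578 to 2.07%). Of the 7, 3 had the higher share in eEVs and 4 the higher share in sEVs. With 1 count added to every species, the median log2 fold change was 0.66 for these 7 and 0.66 for all 117 species, a value that the added count sets, since it belongs to species with 1 count in sEVs and 0 in eEVs.

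With 3 or fewer counts in sEVs, none of the 7 detected species of the list could have been called lower at these depths. By the test across all species, 2 of the list were called higher and 0 lower, to be read against 18.8% and 4.27% of all species. The first, miR-93-5p of the miR-106b cluster, which promotes cell division, had 1 count in sEVs against 4 in eEVs, and its fold change was 13.9 with an interval of 1.38 to 685 (adjusted p = 0.0482, Fisher's exact test). Its cluster mates miR-25-3p and miR-106b-5p were at 0 in both libraries. The second, miR-20a-5p of the growth-promoting miR-17 to miR-92 cluster, had 0 counts in sEVs and 3 in eEVs and the same adjusted p of 0.0482 by Fisher's exact test. Both calls were lost with adjustment over every listed miRNA (adjusted p = 0.816, Fisher's exact test) and in edgeR's exact test at each assumed variation, the range over alternatives being 0.0376 to 0.816. miR-92a-3p, which belongs to that cluster and is abundant in red cells, had 0 and 2 counts, while miR-17-5p and miR-19b-3p were at 0 in both. On the side of sEVs, miR-107-3p had 2 counts there and 0 in eEVs, beside miR-15a-5p, miR-15a-3p and miR-16-2-3p.

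How reads were assigned to the arms of a hairpin is not given in the sources used here. miR-15a, miR-20a and miR-107 had the same counts on their 3p and 5p arms, and miR-92a-3p the same as miR-92a-1-5p. Among hairpins whose detected arms are listed under 1 base name, which leaves out pairs such as miR-92a-3p and miR-92a-1-5p, 22 had identical counts on both arms, with up to 78 counts in sEVs and 10 in eEVs on each arm of miR-677. The counts of such arms may therefore not be separate measurements. miR-93-3p had 0 and 4 counts beside the 1 and 4 of miR-93-5p. miR-16-5p did not show this, with 7 counts against 1 and 0 on its opposite arms, and for miR-451a no opposite arm is listed. Among other red cell miRNAs, miR-22-3p, miR-25-3p, miR-185-5p and miR-210-3p were at 0 in both libraries, as were miR-182-5p, miR-183-5p and miR-96-5p, which form 1 cluster.

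**Figure D5:**
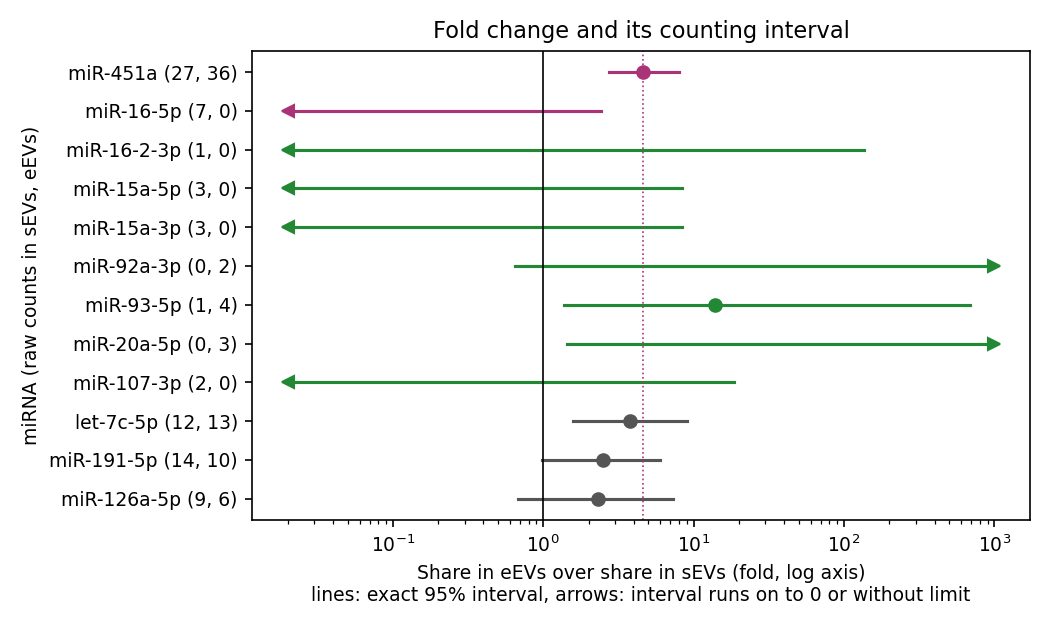
Share in eEVs over share in sEVs (log axis, points) with exact 95% intervals (lines) for the 2 detected red cell miRNAs (purple), the 7 detected species of the wider list (green) and the 3 species nearest to miR-451a in fold change (grey); raw counts stand in brackets, arrows mark intervals that run to 0 or have no upper end, and the dotted line marks the 4.64-fold of miR-451a. The interval of miR-16-5p ends at 2.41, below that line, while those of the other species hold it. The species of the wider list had at most 4 counts in a library, and the 3 grey species were chosen for nearness to the line.

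Markers of other cells were counted beside the red cell species. The list for platelets and endothelium had counts on 5 of 5 species, which summed to 51 counts in sEVs (1.79%) and 16 in eEVs (1.95%). Of these, 2 had a count and a higher share in eEVs, namely miR-126a-5p and miR-191-5p. The other 3, miR-126a-3p, miR-223-3p and miR-21a-5p, had 14, 5 and 9 counts in sEVs and 0 in eEVs. White blood cell markers had counts on 4 of 6 species, with 166 counts in sEVs (5.82%) and 22 in eEVs (2.68%). Liver markers had counts on 2 of 3 species, with 20 in sEVs (0.702%) and 0 in eEVs, and the 4 skeletal muscle markers were at 0 in both. The arms of miR-142a made up 155 of the 166 white blood cell counts in sEVs and 21 of the 22 in eEVs. Of that list, 1 species was called lower, against 4.27% of all species, namely miR-142a-5p with 79 and 7 counts (adjusted p = 0.0118, Fisher's exact test), while miR-142a-3p had 76 and 14 counts (adjusted p = 0.319 by the same Fisher's exact test). With adjustment over every listed miRNA 0 species were called lower, so this call was lost. The part of these markers in the share of miR-451a was not tested.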

How the data were processed

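Small RNA of SEC-isolated plasma EVs was sequenced as 50-nt single-end reads (TruSeq Small RNA kit), with 1 library per pool of 20 mice. The authors deposited raw counts listed by mature miRNA. They also deposited a second table of fractions, each equal to the counts of a species divided by the miRNA total of its library. The aligner, miRNA release, genome build and rule for assigning reads to the arms of a hairpin are not given in the sources used here. The 67 listed names that are not mouse had 0 counts.

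The members were taken by name. The members and lists were chosen with earlier results of these data known. Species named in the text were the members, the wider list where a count was found or a cluster mate or list member at 0 was described, the 3 species with more than 3 counts in each library nearest to miR-451a in log2 fold change, its neighbours in the order of counts, the references of the ratios and the marker lists. miR-1194, miR-677, miR-93-3p and miR-92a-1-5p were named after their values were seen. Fold changes divide the share in eEVs by that in sEVs, with an exact interval given the sum of both counts, and shares had Wilson intervals, all at 95%. Each of the 117 detected species (1 or more counts) was tested against all other counts with Fisher's exact test (two-sided), adjusted by Benjamini-Hochberg at a threshold of 0.05. With 1 library per group, edgeR's quasi-likelihood test could not be fitted. No molecular identifiers are described, so reads may be counted more than once per molecule and are not independent molecules, and p-values, intervals and limits cover counting error only, and the totals of 2851 and 820 counts set the precision. Alternatives were TMM factors (edgeR), size factors (DESeq2), other totals, added counts, other sets for the adjustment, edgeR's exact test with assumed variation and other reference species. Sequences and hairpin positions came from RefSeq (GRCm38.p6) and host genes from GENCODE M21. Python 3.11.15, scipy 1.17.1, R 4.3.3, edgeR 4.0.16 and DESeq2 1.42.0 were used.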

Additional observations from a re-analysis of the deposited data

How the results depend on the processing

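The fold change of miR-451a stayed above 1, with its interval, under all 9 alternatives and ranged from 4.19 with 1 count added to 6.67 with DESeq2 size factors. 1 of the 9, the deposited table of fractions, holds counts divided by library totals. It repeats the main value of 4.64 by construction and is no separate check. TMM factors raised the median log2 fold change of the 31 shared species by 0.17 and DESeq2 size factors by 0.52, and the fold change of miR-451a was 5.23 and 6.67 under them. Its adjusted p stayed under 0.05 in 7 of 8 alternatives and was 0.426 in edgeR's exact test with an assumed variation of 0.4. The adjusted p of miR-16-5p ranged from 0.350 to 1.

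The number of species called depended on the test. Against 22 called higher, adjustment over species with 5 or more counts gave 6, adjustment over every listed miRNA 3, while 3, 2 and 1 were called in the exact test of edgeR at an assumed variation of 0.1, 0.2 and 0.4. Against 5 called lower, adjustment over every listed miRNA gave 0, and the exact test gave 2, 2 and 0, but 7 were called lower with adjustment over species with 5 or more counts and 7 with totals without the most abundant species. The balance of higher to lower calls was thus 22 against 5 in the main test and 6 against 7 with adjustment over species with 5 or more counts. Species with few counts cannot pass an adjustment that leaves them out. The ratio of miR-451a was 4.75 times higher in eEVs against miR-23a-3p but 1.87 times against miR-191-5p, where the test no longer passed, and the cause was not tested. With miR-16-5p as the reference, a pair chosen after its counts were seen and so no independent evidence, the interval began at 1.72. The calls of let-7c-5p, miR-93-5p and miR-20a-5p held in 4 of 8, 4 of 8 and 2 of 6 alternatives.

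Members detected stayed at 2 in sEVs and 1 in eEVs when 2, 3 or 5 counts were needed. The ratio of miR-451a to miR-144 between libraries has no value, so its alternatives were not run, and miR-24-3p, at 0 in both libraries, gave none as a reference. Counting identical mature sequences once was not run. No paired analysis was possible because each group has 1 library. The limit of a count of 0 at 820 counts, 0.366%, applies to every zero in eEVs, and no alternative measures the spread between mice or pools.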
